A study of Mus musculus with 8 samples.

Results

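The unfolded protein response and the integrated stress response were followed through 32 genes in hearts of swimming and sedentary mice. The genes were taken as a set list of sensors, transcription factors and targets, chosen with earlier results of these data known. They were grouped by the transcription factor that the textbook view puts over them. The ATF4 arm held 14 genes, the ATF6 arm 13 and the XBP1 arm 5, although several targets answer to more than 1 factor. All 32 were present among the 18137 genes of the table. The 2 groups were swimming mice and sedentary mice, both wild type (WT), with 4 libraries of total heart RNA each. The study concerns aging hearts. The sources used here do not give age, strain, sex, length of training or the time between the last swim and collection. Replicates are numbered biological replicates, but the labels do not state separate mice, so that p-values measure the spread between these samples.

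Proteins bound for the cell surface or for secretion fold in the endoplasmic reticulum (ER), and an overload of unfolded protein there is sensed by ATF6, by the nuclease IRE1 (gene Ern1) and by the kinase PERK. ATF6 is cut free and switches on chaperone genes, IRE1 splices Xbp1 mRNA into a form that encodes an active factor, and PERK phosphorylates the translation factor eIF2, which slows protein synthesis and lets Atf4 mRNA be translated. Kinases that sense amino acid shortage, viral RNA or heme shortage act on the same site of eIF2, hence the name integrated stress response. In heart muscle the response is known from pressure overload and ischemia. Splicing, cleavage, phosphorylation and translation are not read by transcript levels, which cover the RNA side of these pathways only.

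Expression was given in FPKM (fragments scaled by transcript length and library size) and summed over the transcripts of a gene. The tissue label was checked with marker genes. The 10 ventricular cardiomyocyte markers summed to 11387 to 13584 FPKM in swimming libraries and 11325 to 14008 FPKM in sedentary libraries. Sedentary replicate 4 stood apart by transcripts of liver and fat. Its 6 hepatocyte markers summed to 43.4 FPKM, against 1.07 FPKM or less in every other library, and its 5 adipocyte markers to 18.9 FPKM, against 0.899 FPKM or less. The mitochondrially encoded share of FPKM was 18.5, 13.4, 16.7 and 18.3% in swimming replicates 1 to 4, against 20.8, 20.3, 19.7 and 19.1% in sedentary replicates 1 to 4. Relative depth read from the lowest values was 1.64 in swimming replicate 2 and 0.871 to 1.00 in the other 7 libraries, and absolute depth is unknown.

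Levels spanned the range from abundant chaperones to genes near the limit of the table. FPKM is per length, which allows a rough comparison of levels between genes. Assembled transcripts, which are not paired with genes, held 11.3 to 12.5% of FPKM and were left out. The sum of a gene can therefore be too low. The lectin chaperones Canx (calnexin) and Calr (calreticulin), the ER HSP90 protein Hsp90b1 and the ER HSP70 protein Hspa5 (BiP) led the list. Canx averaged 89.2 ± 7.20 FPKM in swimming hearts and 91.4 ± 2.07 FPKM in sedentary hearts (SD, n = 4 each, as for all means below). Transcription factor genes stood lower, with Atf4 at 22.8 ± 2.65 FPKM in swimming hearts and 22.4 ± 1.69 FPKM in sedentary hearts. Two-sided tests used limma on log2(FPKM + 0.5) for the 11674 genes with a mean of at least 0.5 FPKM, of which 30 were on the list. The serine synthesis gene Phgdh was below that limit, at 0.225 to 0.343 FPKM in swimming hearts and 0.294 to 0.481 FPKM in sedentary hearts. Fgf21, a hormone gene of the liver that stressed muscle can also switch on, was listed at 0 in swimming replicates 2 and 4 and in sedentary replicates 1 and 2, and at 0.0871 FPKM or less elsewhere. Both received no test.

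**Figure D1:**
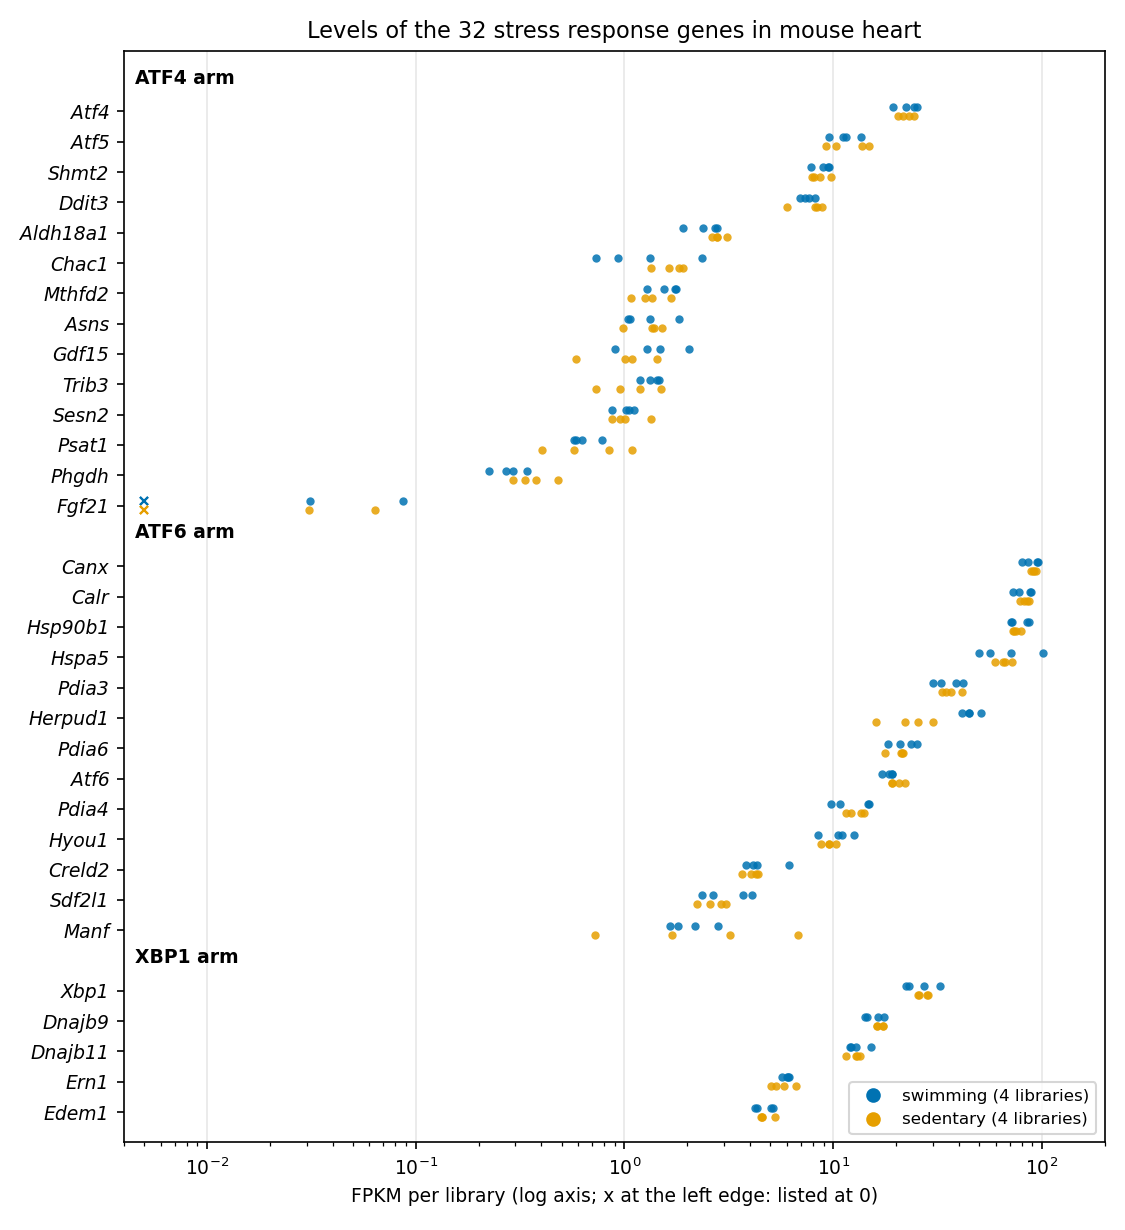
FPKM of each of the 32 genes in every library on a log axis, with swimming libraries (blue) drawn above sedentary libraries (orange) and genes ordered by level within each arm. The points of both groups lie over each other for every tested gene but Herpud1, whose swimming libraries sit between 41.6 and 50.8 FPKM, all above the sedentary libraries.

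None of the 30 tested genes passed the threshold of an adjusted p below 0.05 (limma, Benjamini-Hochberg over all genes tested). Across the transcriptome 2 of 11674 genes passed, or 0.0171%. At an unadjusted p below 0.05 the list held 1 gene, Herpud1, which is 3.33% of those tested, against 7.37% of all genes. The log2 fold change of swimming over sedentary hearts was positive for 14 and negative for 16 genes, with a median of -0.01 against 0.03 for all genes tested. It lay within 0.2 of 0 for 26 of the 30 genes, or 86.7%, against 75.5% of all genes. Medians by arm were -0.02 for the 12 tested genes of the ATF4 arm, 0.04 for the 13 of the ATF6 arm and -0.01 for the 5 of the XBP1 arm. The intervals set how large a difference could have gone unseen. For Atf4 the 95% interval ran from -0.20 to 0.24 on the log2 scale, and for Hspa5 from -0.44 to 0.51.

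**Figure D2:**
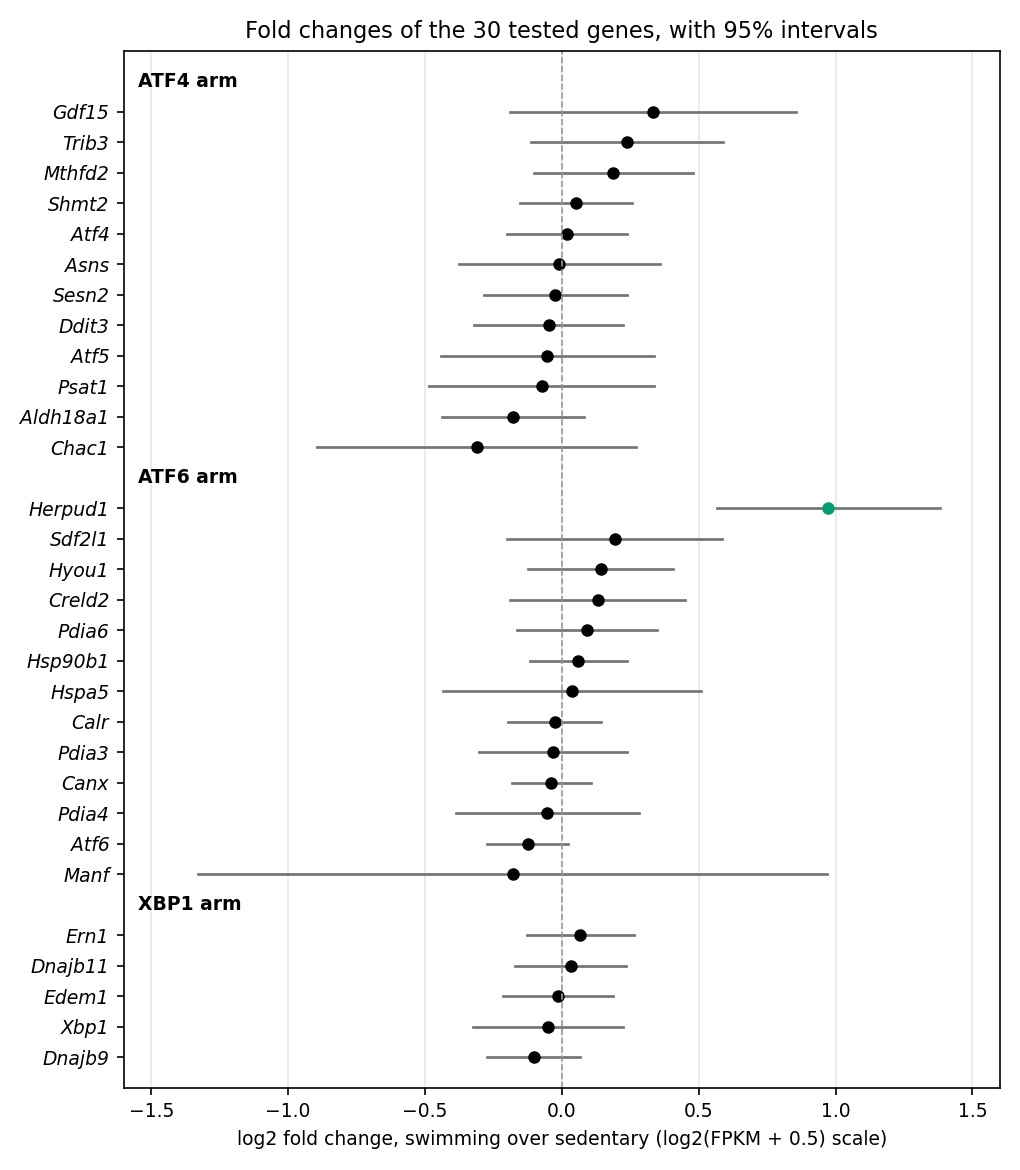
Log2 fold change of the 30 tested genes, swimming over sedentary, with 95% intervals from limma, ordered within each arm. Herpud1 (green, the gene whose groups do not overlap) stands at 0.97 with an interval of 0.57 to 1.38, while the intervals of the other 29 genes cross 0.

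Herpud1 was the gene with the largest fold change of the list. It encodes an ER membrane protein that helps to assemble the ubiquitin ligase complex of ER-associated degradation, in which misfolded proteins are moved to the cytosol and destroyed. Herpud1 (ENSMUSG00000031770, mm10 chr8:94386438-94395377, plus strand) had 44.9, 41.6, 50.8 and 44.8 FPKM in swimming replicates 1 to 4, against 16.1, 22.0, 30.2 and 25.5 FPKM in sedentary replicates 1 to 4. Every swimming library lay above every sedentary library. The means were 45.5 ± 3.84 FPKM in swimming hearts and 23.5 ± 5.96 FPKM in sedentary hearts, a log2 fold change of 0.97 (SE 0.177). The unadjusted p was 0.000608, the 15th smallest of the 11674 genes, and the adjusted p was 0.434 (limma), so the difference did not pass over all genes. A swimming group wholly above the sedentary group was seen for this 1 of 30 genes (3.33%), and for 3.24% of all genes tested. A log2 fold change of at least 0.9 was seen in 0.839% of all genes. Leaving out each library in turn gave log2 fold changes of 0.81 to 1.11 and adjusted p of 0.216 to 0.731, and without the sedentary library with liver transcripts it was 1.03 (adjusted p = 0.675).

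Of the 4 annotated Herpud1 transcripts, the protein-coding Herpud1-201 held 92.4 to 96.0% of the gene in all 8 libraries. It averaged 43.2 ± 3.63 FPKM in swimming hearts and 21.8 ± 5.45 FPKM in sedentary hearts (log2 fold change 1.00, limma adjusted p = 0.464 over all transcripts, of which 0.0531% were called). Herpud1-202, annotated as a target of nonsense-mediated decay, averaged 1.90 ± 0.482 FPKM in swimming hearts and 1.13 ± 0.610 FPKM in sedentary hearts (adjusted p = 0.877). An antisense gene, Gm15890, is annotated over the start of Herpud1. The sources used here do not say whether strand was kept, so reads from the stretch where both genes overlap cannot be told apart.

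The summed level of 8 macrophage markers did not overlap between the groups either, at 197 to 218 FPKM in swimming libraries and 161 to 169 FPKM in sedentary libraries. All 8 markers had a level above 0 in every library and a positive log2 fold change, against 58.7% of all genes tested. None was called (limma), and 3 (37.5%) had an unadjusted p below 0.05, against 7.37% of all genes. The swimming group lay wholly above in 4 of the 8, against 3.24% of all genes, while Cd68, Csf1r, Adgre1 and Cd163 overlapped. Lyz2 held a large part of the sum, with 106 to 121 FPKM in swimming libraries and 88.0 to 99.2 FPKM in sedentary libraries. In whole tissue, fewer cells of a type and less RNA per cell cannot be told apart, and the part of these cells in the Herpud1 difference was not tested. Endothelial markers summed to 136 to 150.1 FPKM in swimming libraries and 134 to 149 FPKM in sedentary libraries, and fibroblast markers to 277 to 311 FPKM in swimming libraries and 239.8 to 317 FPKM in sedentary libraries, so that both overlapped. Sums of smooth muscle and pericyte markers overlapped too. Positive log2 fold changes were found for 7 of 8 fibroblast, 4 of 6 endothelial and 4 of 6 smooth muscle and pericyte markers. An unadjusted p below 0.05 (limma) was found for 1 of 8 fibroblast markers (12.5%) and 1 of 6 smooth muscle and pericyte markers (16.7%), and none was called. Of 8 markers of plasma and B cells, the plasma cells being rich in ER, 6 were in the table analysed, without the immunoglobulin genes Ighm and Igkc, and these 6 summed to 0.583 to 1.32 FPKM in swimming libraries and 0.535 to 1.65 FPKM in sedentary libraries.

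The promoter of Herpud1 is shown because it carries recognition letters of more than 1 arm. Promoter windows from RefSeq (GRCm38.p6, the assembly behind mm10, 250 bases before to 50 after each start) were found for 29 of the 32 genes and searched on both strands. Capitals mark, from left to right, an inverted match to the amino acid response element TGATGNAA bound by ATF4 (CARE, chr8:94386317-94386324, 112 bases before the start) and a match to the second ER stress element (ERSE-II, which reads ATTGG, 1 base of any kind and CCACG, chr8:94386377-94386387, 52 bases before the start).
Herpud1, chr8:94386179-94386428, plus strand: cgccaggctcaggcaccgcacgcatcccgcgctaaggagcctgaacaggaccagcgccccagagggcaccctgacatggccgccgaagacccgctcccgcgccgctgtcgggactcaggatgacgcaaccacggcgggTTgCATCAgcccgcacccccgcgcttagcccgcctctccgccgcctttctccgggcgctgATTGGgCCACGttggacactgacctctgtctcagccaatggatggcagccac
ERSE-II letters occurred for 2 of the 29 genes with a window (6.90%), Herpud1 and Dnajb11, and for 12 of 27025 genes in all (0.0444%). Dnajb11, which carries these letters 7 bases after its start and not before it, had a log2 fold change of 0.03, against 0.97 for Herpud1.

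**Figure D3:**
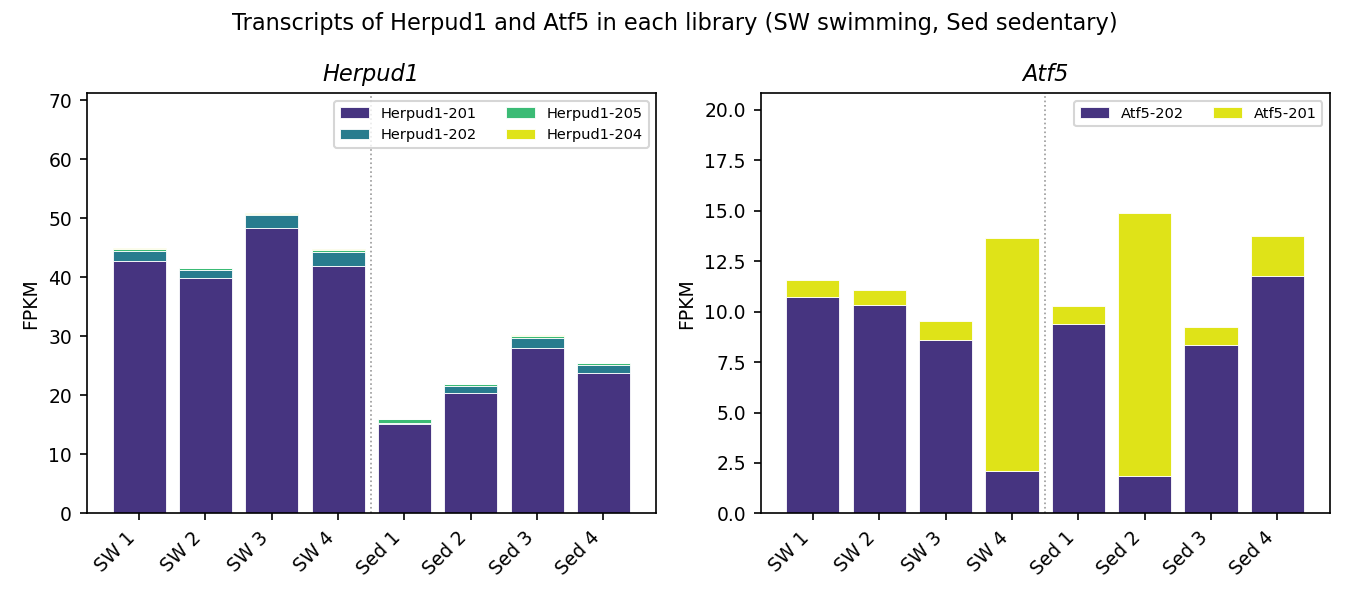
FPKM of each annotated transcript of Herpud1 (left) and Atf5 (right), stacked per library, with swimming libraries (SW) left of sedentary libraries (Sed). The bars of Herpud1 are almost wholly Herpud1-201 and taller in all 4 swimming libraries, while Atf5 is mostly Atf5-201 in swimming replicate 4 and sedentary replicate 2 and mostly Atf5-202 elsewhere.

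In the ATF6 arm the ER folding genes varied among swimming libraries in a shared order, and no difference between the groups passed. Atf6 itself, the membrane-bound sensor and factor, had 19.2, 19.2, 18.5 and 17.2 FPKM in swimming replicates 1 to 4, against 22.1, 20.7, 19.1 and 19.2 FPKM in sedentary replicates 1 to 4. Its log2 fold change was -0.13 (SE 0.0645, limma adjusted p = 0.702), and the groups overlapped between 19.1 and 19.2 FPKM. Hspa5, the chaperone that holds the sensors inactive, had 50.2, 71.4, 102 and 56.3 FPKM in swimming libraries and 59.4, 64.8, 66.7 and 72.1 FPKM in sedentary libraries. The highest and the 2 lowest of the 8 values were thus all from swimming hearts. The means were 69.9 ± 22.9 FPKM in swimming hearts and 65.8 ± 5.22 FPKM in sedentary hearts, a log2 fold change of 0.04 (adjusted p = 0.974).

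Swimming replicates 2 and 3 were the high libraries for most of this arm, an order picked from the values of these genes, so that the counts below describe it and do not test it. In 10 of its 13 genes both lay above swimming replicates 1 and 4, the exceptions being Atf6, Herpud1 and Manf. That is 76.9% of the arm, against 2234 of 11674 genes tested (19.1%), 6 of 12 genes in the ATF4 arm and 3 of 5 in the XBP1 arm. Swimming replicate 3 was the highest of all 8 libraries in 10 of the 13 genes. Median-of-ratios scaling evens out the total that a few abundant transcripts take. After it the order held in 11 of the 13 genes of the ATF6 arm and in 24.1% of all genes. It also held in 4 of 5 genes of the XBP1 arm and 6 of 12 of the ATF4 arm, so it was not particular to the ATF6 arm. Those libraries also had the lowest mitochondrially encoded shares, 13.4 and 16.7%, and replicate 2 the greatest depth. The part of either in the order was not tested. Genes of 1 pathway share their libraries, so that the 10 genes are not 10 separate observations.

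The disulfide isomerases Pdia3, Pdia4 and Pdia6, which form and rearrange disulfide bonds, followed that order. Pdia4 had 10.8, 14.7, 14.8 and 9.78 FPKM in swimming libraries, against 14.0, 12.2, 11.6 and 13.6 FPKM in sedentary libraries. Pdia6 had 18.2, 23.5, 25.2 and 20.9 FPKM in swimming libraries, against 21.4, 21.6, 17.7 and 21.2 FPKM in sedentary libraries. Calr had 73.0, 88.3, 88.0 and 77.3 FPKM in swimming libraries, against 81.8, 87.1, 78.5 and 84.5 FPKM in sedentary libraries. In each of them the groups overlapped, with the sedentary values inside or near the swimming range. The Hspa5 exchange factor Hyou1 had 8.47, 11.0, 12.6 and 10.5 FPKM in swimming libraries and 10.3, 9.51, 9.51 and 8.78 FPKM in sedentary libraries (log2 fold change 0.14, adjusted p = 0.794). Sdf2l1, part of a chaperone complex with Hspa5, had the largest log2 fold change of the arm after Herpud1, 0.19 (adjusted p = 0.812), with 2.67, 3.69, 4.08 and 2.35 FPKM in swimming libraries and 2.22, 2.91, 2.58 and 3.06 FPKM in sedentary libraries. Creld2, an ER resident stress protein, averaged 4.59 ± 1.05 FPKM in swimming hearts and 4.09 ± 0.320 FPKM in sedentary hearts. Manf, a secreted factor kept in the ER by Hspa5, had 1.65, 2.81, 1.81 and 2.18 FPKM in swimming libraries, against 0.726, 3.21, 1.69 and 6.76 FPKM in sedentary libraries (log2 fold change -0.18, adjusted p = 0.948). Its sedentary values were spread wide, and the highest came from the library with liver transcripts.

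Beside Herpud1 the arm had 6 positive and 6 negative log2 fold changes, all within 0.2 of 0. Leaving out swimming replicates 2 and 3 together, a step chosen after their values were seen, lowers the fold changes of these genes by construction, since they were the high libraries. The arm's median was then -0.13 and the log2 fold change of Hspa5 -0.30, values that restate the order above and are no separate evidence, while that of Herpud1 stayed positive. No gene of the list was called in that fit (limma), and 7 of the 30 had an unadjusted p below 0.05, against 1065 of 11674 genes (9.12%). The libraries left out were picked from the values of these genes, so that count is no test against the share of all genes.

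**Figure D4:**
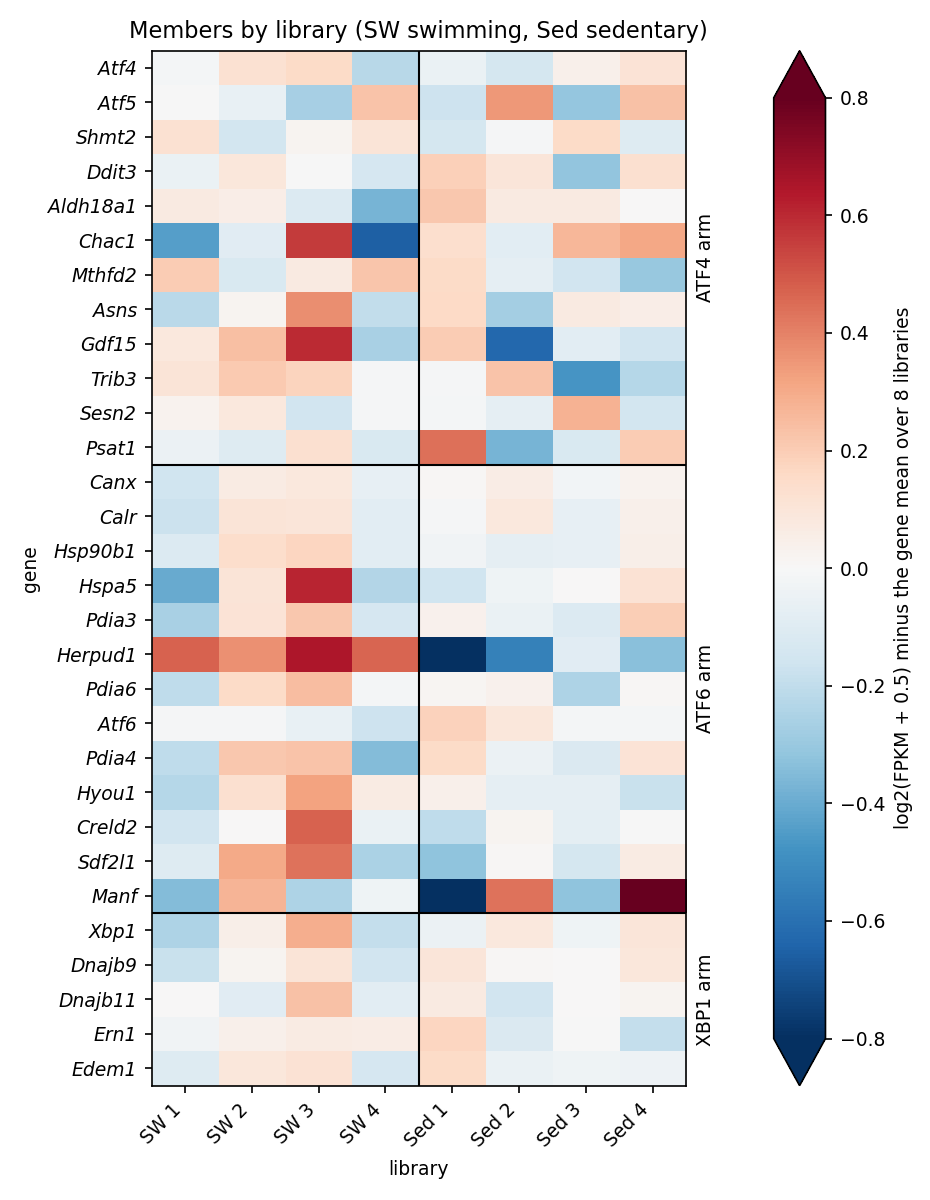
Log2(FPKM + 0.5) of the 30 tested genes minus the gene's mean over 8 libraries, in colour, with rows grouped by arm and swimming libraries (SW) left of sedentary libraries (Sed). Swimming replicate 3 is above the gene mean in 11 of 13 and replicate 2 in 12 of 13 genes of the ATF6 arm, while swimming replicate 1 is above it in 1 and replicate 4 in 2.

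The ER stress element is shown because it is the element through which ATF6 acts on folding genes. This element (ERSE, bound by ATF6 with the factor NF-Y) reads CCAAT, 9 bases of any kind and CCACG. It occurred for 6 of the 29 genes with a promoter window (20.7%), against 37 of 27025 genes in all (0.137%). The genes were listed as textbook targets of these factors, so the shares of this and the other elements describe the list and are no result of these data. Each match is written as the element reads, with the fixed letters in capitals and the 9 free letters in lower case.
Hspa5, chr2:34772025-34772043, plus strand, 65 bases before the start: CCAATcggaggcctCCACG
Hsp90b1, chr10:86705533-86705551, plus strand, 107 bases before the start: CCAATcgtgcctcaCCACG
Hsp90b1, chr10:86705638-86705656, minus strand, 212 bases before the start: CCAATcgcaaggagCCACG
Pdia6, chr12:17266491-17266509, plus strand, 98 bases before the start: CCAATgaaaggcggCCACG
Calr, chr8:84847075-84847093, plus strand, 162 bases before the start: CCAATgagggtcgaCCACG
Canx, chr11:50325800-50325818, minus strand, 145 bases before the start: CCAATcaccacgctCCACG
Creld2, chr15:88819520-88819538, minus strand, 126 bases before the start: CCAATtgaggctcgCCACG
The free letters differed between all 7 matches. The 6 genes had log2 fold changes of 0.04 (Hspa5), 0.06 (Hsp90b1), 0.09 (Pdia6), -0.03 (Calr), -0.04 (Canx) and 0.13 (Creld2). All 6 were among the 10 of 13 arm genes with swimming replicates 2 and 3 above replicates 1 and 4. That order was picked from these values, and Pdia3, Pdia4 and Sdf2l1, whose windows held no match, showed it too. A match describes letters and is not a measured binding site. The core letters TGACGTGG of the element bound by spliced XBP1 occurred for 0 of the 29 genes and for 0.714% of all genes with a window.

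No gene of the XBP1 arm passed, and all 5 log2 fold changes lay between -0.10 and 0.07. Ern1, the gene of the splicing sensor IRE1, had 5.70, 5.99, 6.12 and 6.09 FPKM in swimming libraries and 6.62, 5.34, 5.80 and 5.05 FPKM in sedentary libraries (log2 fold change 0.07, SE 0.0842, adjusted p = 0.868). Xbp1 had 22.3, 27.4, 32.6 and 23.2 FPKM in swimming libraries, against 25.6, 28.2, 25.9 and 28.4 FPKM in sedentary libraries. The swimming values of Xbp1 reached both lower and higher than all sedentary values, with a log2 fold change of -0.05 (95% interval -0.32 to 0.22, adjusted p = 0.936). Dnajb9, a co-chaperone of Hspa5 and a strong XBP1 target, averaged 15.7 ± 1.53 FPKM in swimming hearts and 16.8 ± 0.6 FPKM in sedentary hearts. Its log2 fold change of -0.10 was the lowest of the arm (adjusted p = 0.776). Dnajb11, another co-chaperone, and Edem1, which takes misfolded glycoproteins to degradation, had log2 fold changes of 0.03 and -0.01. The 3 Xbp1 transcripts in the table, Xbp1-201, Xbp1-203 and Xbp1-204, all keep exon 4 (chr11:5524239-5524384) in 1 piece, so that the form spliced by IRE1 and the unspliced form were not measured apart. Xbp1-201 held 83.7 to 87.9% of the gene in the 8 libraries.

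In the ATF4 arm, the log2 fold changes of the transcription factors lay within 0.1 of 0. Atf4 had 22.3, 24.5, 25.1 and 19.3 FPKM in swimming libraries, against 21.7, 20.4, 23.2 and 24.3 FPKM in sedentary libraries (log2 fold change 0.02, SE 0.0947, adjusted p = 0.970). Ddit3, which encodes CHOP, a factor tied to cell death under lasting stress, had 7.36, 8.19, 7.62 and 6.93 FPKM in swimming libraries, against 8.81, 8.2, 6.04 and 8.4 FPKM in sedentary libraries (log2 fold change -0.05, adjusted p = 0.937). A second annotated locus carries the symbol Ddit3 and reached at most 0.00268 FPKM. The groups overlapped for both genes, and the swimming libraries spread wider for Atf4 and narrower for Ddit3. Trib3, a pseudokinase that CHOP switches on and that dampens ATF4 and CHOP activity, had 1.32, 1.47, 1.43 and 1.19 FPKM in swimming libraries, against 1.19, 1.5, 0.73 and 0.953 FPKM in sedentary libraries (log2 fold change 0.24, adjusted p = 0.755).

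Enzymes of amino acid and folate metabolism under ATF4 had log2 fold changes of both signs, and none passed. Asns, asparagine synthetase, averaged 1.31 ± 0.359 FPKM in swimming hearts and 1.31 ± 0.226 FPKM in sedentary hearts. The mitochondrial folate enzyme Mthfd2 had 1.74, 1.29, 1.55 and 1.77 FPKM in swimming libraries, against 1.67, 1.35, 1.25 and 1.07 FPKM in sedentary libraries (log2 fold change 0.19, adjusted p = 0.761). Its partner in that pathway, Shmt2, averaged 8.94 ± 0.775 FPKM in swimming hearts and 8.60 ± 0.842 FPKM in sedentary hearts. The proline synthesis gene Aldh18a1 averaged 2.45 ± 0.397 FPKM in swimming hearts and 2.82 ± 0.208 FPKM in sedentary hearts (log2 fold change -0.18, adjusted p = 0.751). Psat1 of serine synthesis and Sesn2, a leucine sensor that restrains mTORC1, had log2 fold changes of -0.07 and -0.02. The most negative value of the list was that of Chac1, an enzyme that breaks down glutathione, at -0.31 (95% interval -0.90 to 0.27, adjusted p = 0.794), with 0.932, 1.33, 2.36 and 0.734 FPKM in swimming libraries and 1.63, 1.33, 1.83 and 1.91 FPKM in sedentary libraries. Gdf15, a secreted stress hormone, had the most positive value of the arm at 0.33 (95% interval -0.19 to 0.86, adjusted p = 0.764). Its levels were 1.28, 1.48, 2.04 and 0.904 FPKM in swimming libraries and 1.43, 0.584, 1.08 and 1.01 FPKM in sedentary libraries. Swimming replicate 3 was the highest library for both Chac1 and Gdf15, although their fold changes had opposite signs.

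CARE letters are shown for the remaining genes that carry them, since they are the element through which ATF4 acts. TGATGNAA occurred for 5 of the 29 genes with a window (17.2%), Asns, Chac1, Fgf21, Trib3 and Herpud1, against 1219 of 27025 genes in all (4.51%).
Asns, chr6:7693225-7693232, minus strand, 23 bases before the start: TGATGaAA
Chac1, chr2:119351049-119351056, minus strand, 193 bases before the start: TGATGcAA
Fgf21, chr7:45615622-45615629, plus strand, 139 bases before the start: TGATGcAA
Trib3, chr2:152344039-152344046, plus strand, 14 bases after the start: TGATGtAA
Among the 4 tested genes that carry them, the log2 fold changes were -0.01 (Asns), -0.31 (Chac1), 0.24 (Trib3) and 0.97 (Herpud1), which differ in sign.

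Atf5, the factor tied to the mitochondrial unfolded protein response, did not pass at the gene level and was uneven between its transcripts. The gene averaged 11.5 ± 1.69 FPKM in swimming hearts and 12.0 ± 2.69 FPKM in sedentary hearts (log2 fold change -0.05, adjusted p = 0.955). Atf5-201, which starts at the upstream exon (mm10 chr7:44816402-44816658, minus strand), had 0.856, 0.759, 0.960 and 11.5 FPKM in swimming libraries, against 0.897, 13.0, 0.897 and 1.98 FPKM in sedentary libraries. Atf5-202, which starts at the downstream exon (chr7:44815482-44815658), had 10.7, 10.3, 8.59 and 2.11 FPKM in swimming libraries, against 9.39, 1.87, 8.34 and 11.8 FPKM in sedentary libraries. The gene's value thus came mostly from Atf5-201 in swimming replicate 4 (84.5%) and sedentary replicate 2 (87.4%), and mostly from Atf5-202 in the other 6 libraries, where Atf5-201 held 6.85 to 14.4%. The transcripts share the other exons almost wholly, so that few fragments set them apart. Over all 32 genes the table listed 70 transcripts, of which 40 were tested and 0 called (limma over all transcripts tested, 1 with an unadjusted p below 0.05).

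Other genes of the same pathways were read from lists of 108 genes, of which 98 were tested. None was called (limma), and 5 (5.10%) had an unadjusted p below 0.05, against 7.37% of all genes tested. Of the 98 genes, 59 had a positive and 39 a negative log2 fold change, and their median was 0.02. The positive share was 60.2%, near the 58.7% of all genes tested, and the counts of signs below stand against that share. Sensors and eIF2 regulators had 12 positive and 6 negative values. The ATF6 paralog Atf6b averaged 5.02 ± 0.286 FPKM in swimming hearts and 4.46 ± 0.384 FPKM in sedentary hearts (log2 fold change 0.15, adjusted p = 0.699). Mbtps2, the site-2 protease that cuts ATF6, averaged 0.494 ± 0.124 FPKM in swimming hearts and 0.868 ± 0.356 FPKM in sedentary hearts (log2 fold change -0.43, adjusted p = 0.680). Impact, an inhibitor of the amino acid sensing kinase GCN2, averaged 13.0 ± 0.524 FPKM in swimming hearts and 12.0 ± 0.802 FPKM in sedentary hearts.

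Other ATF4 targets had 10 positive and 11 negative values. Eif4ebp1, a repressor of cap-dependent translation, had 4.33, 2.29, 2.89 and 3.42 FPKM in swimming libraries, against 3.03, 10.1, 10.7 and 10.6 FPKM in sedentary libraries (log2 fold change -1.18, SE 0.390, adjusted p = 0.613). Sedentary replicate 1 lay inside the swimming range. The leucine transporter Slc7a5 averaged 1.94 ± 0.196 FPKM in swimming hearts and 1.62 ± 0.0759 FPKM in sedentary hearts (adjusted p = 0.660). The arginine transporter Slc7a1 had 7.28 and 8.26 FPKM in swimming replicates 3 and 4, against 0.601 FPKM or less in the other 6 libraries (adjusted p = 0.671).

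Other ER folding genes had 15 positive and 4 negative values, with a median of 0.05. Tmx1, a membrane-bound thioredoxin of the ER, had 17.4, 19.3, 19.0 and 17.3 FPKM in swimming libraries, against 20.3, 20.0, 20.3 and 28.9 FPKM in sedentary libraries (log2 fold change -0.27, adjusted p = 0.674). Every swimming library lay below every sedentary library, as it did for 1.58% of all genes. The disulfide isomerase Txndc5 averaged 7.40 ± 3.11 FPKM in swimming hearts and 4.61 ± 0.811 FPKM in sedentary hearts (adjusted p = 0.702), and the prolyl isomerase Fkbp2 averaged 1.71 ± 0.164 FPKM in swimming hearts and 1.00 ± 0.927 FPKM in sedentary hearts (adjusted p = 0.717). Genes of ER-associated degradation, the process Herpud1 serves, had 11 positive and 5 negative values and a median of 0.03, with a range from -1.84 to 0.13. The lowest value was that of Vcp, which was listed at 0 or near it in some libraries of both groups, so no difference is read from it. Os9, a lectin that delivers misfolded glycoproteins, had 9.21, 8.60, 8.79 and 9.20 FPKM in swimming libraries, against 8.15, 7.75, 8.44 and 8.22 FPKM in sedentary libraries (log2 fold change 0.13, adjusted p = 0.658). The swimming group of Os9 lay wholly above. This was so in 2 of the 98 other pathway genes tested (2.04%), against 3.24% of all genes. Sel1l, the scaffold that pairs with the ligase, averaged 16.3 ± 0.613 FPKM in swimming hearts and 15.5 ± 0.516 FPKM in sedentary hearts (adjusted p = 0.764). Ube2g2, a ubiquitin-conjugating enzyme of this process, had 9.04, 18.2, 5.44 and 5.24 FPKM in swimming libraries, against 18.3, 15.8, 19.1 and 5.87 FPKM in sedentary libraries. Its groups overlapped, and its log2 fold change of -0.66 was opposite in sign to that of Herpud1 (adjusted p = 0.776).

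ER translocation genes had 7 positive and 8 negative values. Sec11c, a catalytic subunit of signal peptidase, had 4.68, 2.86, 4.03 and 4.47 FPKM in swimming libraries, against 2.77, 2.54, 2.71 and 2.55 FPKM in sedentary libraries (log2 fold change 0.50, SE 0.136, limma adjusted p = 0.586). Its swimming group lay wholly above, as did that of 3.24% of all genes. Ssr2, a subunit of the translocon-associated complex, had 12.6, 12.8, 13.1 and 12.4 FPKM in swimming libraries, against 14.0, 14.3, 14.4 and 13.1 FPKM in sedentary libraries (log2 fold change -0.12, limma adjusted p = 0.658). Its swimming group lay wholly below, as did that of 1.58% of all genes. Spcs2, another signal peptidase subunit, averaged 9.15 ± 0.733 FPKM in swimming hearts and 9.70 ± 0.337 FPKM in sedentary hearts (adjusted p = 0.796). Mitochondrial unfolded protein genes had 4 positive and 5 negative values. Among them the chaperonin Hspd1 averaged 81.6 ± 2.02 FPKM in swimming hearts and 88.3 ± 5.24 FPKM in sedentary hearts (log2 fold change -0.11, adjusted p = 0.681). The protease Htra2 averaged 0.434 ± 0.182 FPKM in swimming hearts and 0.864 ± 0.398 FPKM in sedentary hearts (adjusted p = 0.672), and the co-chaperone Dnaja3 30.6 ± 5.38 FPKM in swimming hearts and 39.0 ± 7.5 FPKM in sedentary hearts (adjusted p = 0.702).

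**Figure D5:**
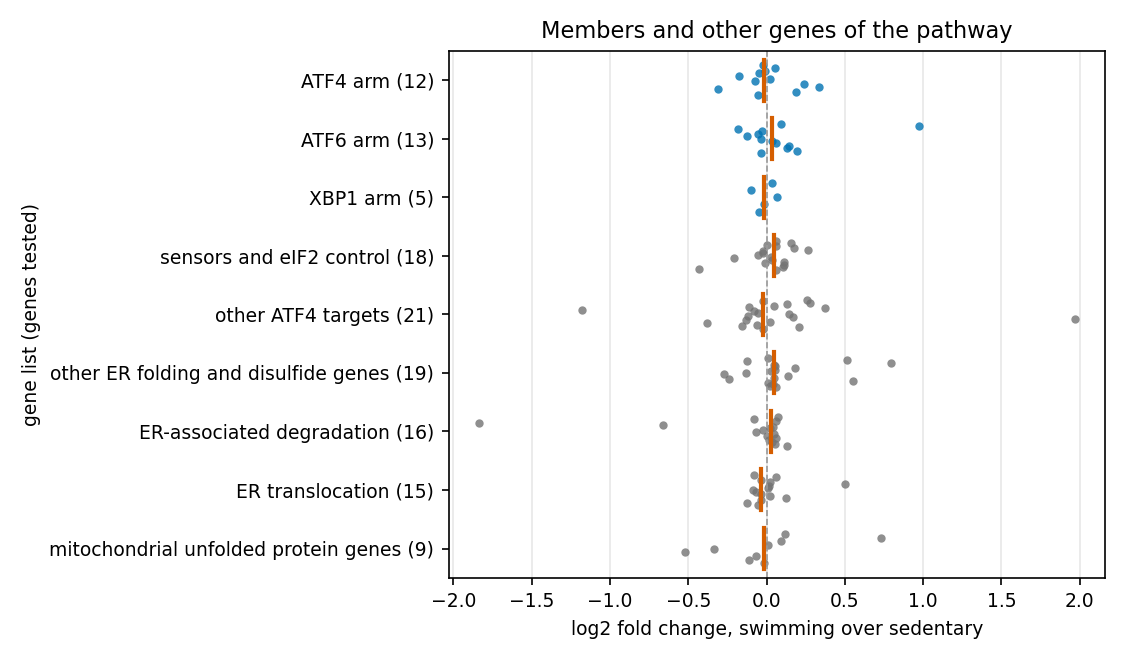
Log2 fold change, swimming over sedentary, of each tested gene in the arms of the list (blue) and in 6 further lists of the pathway (grey), with the median of each list as an orange bar and the number of genes tested in brackets. All 9 medians lie between -0.04 and 0.05, and no gene drawn passed the adjusted threshold.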

How the data were processed

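The authors deposited FPKM per transcript for each of 8 libraries, per the file headers. Libraries were made from ribosome-depleted total RNA with random hexamers, per the labels' protocols. Salmon 0.8.2, HISAT2, STAR 2.5.1a, Subread, featureCounts 1.4.6-p5 and mm10 are named, per the submitters' processing notes, which as used here do not say which tool gave the FPKM. Of 51169 transcripts, 45676 were named by GENCODE M21 and summed to 18137 genes. The summing was added because the design had assumed values per gene. The 5427 assembled transcripts (11.3 to 12.5% of FPKM) stayed out.

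The package limma 3.58.1 (R 4.3.3, trend, two-sided, no other term) was fitted to log2(FPKM + 0.5) of genes averaging at least 0.5 FPKM, and Benjamini-Hochberg adjustment covered all genes, or all transcripts. Fold changes on this scale understate those of low genes. Whole-read steps were too few to recover reads, so no count test was run. Motifs were searched with Python 3.11.15 in RefSeq promoter windows. Members, lists and the rule for other named genes (the 3 with the smallest p per list) were chosen with earlier results of these data known.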

Additional observations from a re-analysis of the deposited data

Results flagged for a closer look

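In groups of 4 libraries, a library was singled out when its gap to the nearest other took up more of the group's range than Dixon's 95% critical value allows. This happened in 8 of 116 groups of members, named pathway genes and their transcripts, and chance alone gives about 1 in 20. Among members, Pdia6 was 17.7 FPKM in sedentary replicate 3, against 21.2 to 21.6 FPKM in the other sedentary libraries, and Edem1 was 5.27 FPKM in sedentary replicate 1, against 4.49 to 4.56 FPKM. Atf5-201 was 11.5 FPKM in swimming replicate 4, against 0.759 to 0.960 FPKM in the other swimming libraries, and 13.0 FPKM in sedentary replicate 2, against 0.897 to 1.98 FPKM in the other sedentary libraries. Among other pathway genes, Htra2, a mitochondrial protease gene, was 0.706 FPKM in swimming replicate 1, against 0.326 to 0.371 FPKM. Eif4ebp1 was 3.03 FPKM in sedentary replicate 1, against 10.1 to 10.7 FPKM, and Dnaja3, a mitochondrial co-chaperone gene, was 27.8 FPKM there, against 41.8 to 43.3 FPKM. Tmx1 was 28.9 FPKM in sedentary replicate 4, the library with liver transcripts, against 20.0 to 20.3 FPKM. No cause was tested.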

How the results depend on the processing

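Over 56 log2 fold changes with 1061 alternatives, 997 kept their sign and side of the threshold, and 64 (of 24 values) changed sign. Counts of genes called and medians of the arms are not among these and are given apart. No member was called under any alternative (limma), and Herpud1 kept log2 fold changes of 0.81 to 1.25, with adjusted p of 0.107 to 0.826. The count of genes called, 2, became 1 with a pseudocount of 0.1 and 1 with quantile normalization, and 0 to 5 with 1 library left out (0 without swimming replicate 2, 5 without swimming replicate 4). With the replicate number as a block, 0 genes were called (651 with an unadjusted p below 0.05). Same-numbered libraries did not deviate together over all genes tested (correlations of -0.05, 0.01, -0.003 and 0.02). A pairing that acts on few genes could be missed there. No member was called with or without the block, so the calls cannot settle whether the numbers pair samples. Leaving out swimming replicates 2 and 3 together, or sedentary replicates 3 and 4, was added after the values were seen. Without swimming replicates 2 and 3, 0 genes were called (1065 with an unadjusted p below 0.05) and the medians of the ATF6 and XBP1 arms were -0.13 and -0.13.

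Signs of log2 fold changes near 0 turned as follows. Without swimming replicates 2 and 3 they were -0.11 (Atf4), 0.085 (Atf5), -0.038 (Creld2), -0.023 (Dnajb11), -0.066 (Hsp90b1), -0.30 (Hspa5), -0.011 (Hyou1), -0.064 (Pdia6), -0.080 (Sdf2l1), 0.51 (Atf5-201), -0.39 (Atf5-202) and -0.29 (Hspa5-202). Without sedentary replicates 3 and 4 they were 0.050 (Asns), 0.27 (Manf) and 0.031 (Sesn2). With median-of-ratios scaling they were -0.018 (Atf4), -0.0063 (Dnajb11) and -0.0026 (Hspa5), and with library weights 0.024 (Asns), 0.019 (Edem1) and 0.0012 (Pdia4). With 1 library left out, values ran from -0.13 to 0.061 (Asns), -0.028 to 0.097 (Atf4), -0.17 to 0.053 (Atf5), -0.065 to 0.026 (Calr), -0.073 to 0.0095 (Canx), -0.0033 to 0.20 (Creld2), -0.16 to 0.0076 (Ddit3), -0.041 to 0.068 (Dnajb11), -0.056 to 0.035 (Edem1), -0.16 to 0.18 (Hspa5), -0.60 to 0.26 (Manf), -0.11 to 0.048 (Pdia3), -0.14 to 0.054 (Pdia4), -0.21 to 0.060 (Psat1), -0.076 to 0.065 (Sesn2), -0.16 to 0.024 (Xbp1), -1.07 to 0.47 (Atf5-201), -0.48 to 0.54 (Atf5-202), -0.17 to 0.21 (Hspa5-202) and -0.15 to 0.028 (Xbp1-201). The cause was not tested. Absolute depth is unknown, and so is the counting error of low genes.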

Other observations

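Some genes outside the list were listed at 0 or near it in some libraries and high in others. Vcp, the ATPase that pulls proteins out of the ER for degradation, was listed at 100.6, 0, 0.0037 and 0 FPKM in swimming replicates 1 to 4 and at 0, 0, 85.5 and 96.5 FPKM in sedentary replicates 1 to 4. It is a gene that every cell uses, it was named after its values were seen, and no difference between groups is read from it. The mitochondrial protease gene Clpp was listed at 0.898, 12.7, 0.0574 and 15.1 FPKM in swimming libraries and at 0.589, 0.570, 14.3 and 0.709 FPKM in sedentary libraries. Of the members, Aldh18a1 had such an alternation between transcripts. Aldh18a1-201 held 34.0, 45.9, 95.5 and 0% of the gene in swimming libraries and 30.9, 96.4, 29.5 and 93.3% in sedentary libraries, while the gene's sum stayed between 1.91 and 3.11 FPKM in all 8.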
